A study of Homo sapiens with 8 samples.

Results

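The miR-30 family was followed across small RNA libraries of the lung carcinoma line H1299 with or without a mutant p53. Its members were taken as the listed miR-30a to miR-30e rows. These were the guide (5p) arms hsa-miR-30a-5p, hsa-miR-30b-5p, hsa-miR-30c-5p, hsa-miR-30d-5p and hsa-miR-30e-5p and the passenger (3p) arms hsa-miR-30a-3p, hsa-miR-30b-3p, hsa-miR-30c-2-3p, hsa-miR-30d-3p and hsa-miR-30e-3p, written without the species prefix from here on. All 10 arms were present in each of the 3 tables. They were 10 of the 945 miRNA features, and of 1226 features in all once tRNA, rRNA and adapter sequences are counted. H1299 is a cell line long kept in culture, grown from the lymph node of a patient with non-small cell lung carcinoma, and it lacks p53. The control group (EV) carried an empty vector, and the R273H group stably expressed the R273H mutant of p53 from a cDNA driven by a pCMV promoter. Each line was left untreated or exposed for 24 h to etoposide, an inhibitor of topoisomerase II that leaves breaks in DNA, which gave 4 groups of 2 libraries each. The dose is given as 10 µM in one protocol and as 10 mM in another. The R273H cells were grown from G418-resistant colonies that had been picked and propagated, whereas the EV cells came from another laboratory, so the mutant protein and the history of the lines cannot be told apart. The study calls the libraries of a group biological replicates, but the labels do not say that they came from separate cultures, so the p-values measure the spread between these libraries, which may be technical.

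miRNAs are short RNAs that are cut from a hairpin in pairs of arms. The guide arm is the strand that is usually kept in Argonaute, where its seed pairs with target mRNAs, and the passenger arm is usually degraded. The miR-30 hairpins lie in pairs on different chromosomes, and the family is known for holding back epithelial-mesenchymal transition, autophagy and proliferation in epithelial tissues, the lung included.

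The mature arms below are RefSeq sequences (GRCh38.p14), with the seed, bases 2 to 8, in capitals. They are shown because the guide arms shown share their seed and differ by few bases further on, which bears on how reads could be divided among them.
miR-30a-5p: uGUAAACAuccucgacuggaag
miR-30c-5p: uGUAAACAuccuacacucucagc
miR-30e-5p: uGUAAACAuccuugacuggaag
miR-30a-3p: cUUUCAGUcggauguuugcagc
miR-30e-3p: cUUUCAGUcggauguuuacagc
miR-30c-2-3p: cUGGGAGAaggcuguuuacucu

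Positions are counted from 1 at the 5′ end, with the base of the first-named arm written first. From miR-30a-5p to miR-30e-5p the substitution was C13U alone, and from miR-30a-3p to miR-30e-3p it was G18A alone. From miR-30a-5p to miR-30c-5p the substitutions were C13A, G14C, G18C, G19U and A20C over the 22 bases compared. The passenger arms shown thus fell into 2 seed groups, miR-30a-3p with miR-30e-3p and miR-30c-2-3p apart from them. Of the 10 members 6 had an entry in the sequence table, so the seeds of miR-30b-3p and miR-30d-3p were not compared. miR-30c-5p is made from both the MIR30C1 and the MIR30C2 hairpin with the same sequence, so its reads cannot be assigned to either hairpin.

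On GRCh37 (GENCODE 44), MIR30A lies at chr6:72113254-72113324 and MIR30C2 at chr6:72086663-72086734, both on the minus strand within the long non-coding RNA gene LINC00472 and 26.5 kb apart. The MIR30C2 hairpin overlaps an exon of that gene and MIR30A does not. MIR30E, at chr1:41220027-41220118, and MIR30C1, at chr1:41222956-41223044, lie on the plus strand outside the exons of NFYC, which codes for a subunit of the nuclear transcription factor Y, and 2.84 kb apart. MIR30B and MIR30D lie 4.27 kb apart on the minus strand of chromosome 8, within 1 long non-coding RNA gene and outside its exons.

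The libraries held 234545 to 579367 reads on annotated features, of which 213007 to 536991 were miRNA reads. miR-21-5p alone took 30.6% to 44.5% of the miRNA reads. Within each group the 2 libraries differed beyond counting noise (chi-square of 32.3 to 70.4 for each degree of freedom) and were kept as separate replicates. The labelled cell type can be checked here against miRNAs of epithelial cells only, and none of miR-200a-3p, miR-200b-3p, miR-200c-3p, miR-141-3p and miR-429 had more than 5 reads in any library. miR-205-5p, also an epithelial miRNA, had 0 to 7 reads a library.

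The guide arms were among the abundant miRNAs of these cells. Over the 8 libraries miR-30c-5p ranked between 3 and 8 among all miRNAs by reads, miR-30a-5p between 15 and 20, miR-30b-5p between 15 and 35, miR-30e-5p between 37 and 49, and miR-30d-5p between 40 and 77. The 5 guide arms together took 4.74% and 7.65% of the miRNA reads in the untreated EV libraries and 6.08% and 7.63% in the untreated R273H libraries. After etoposide they took 5.92% and 5.94% in EV and 5.84% and 6.37% in R273H. As shares of miRNA reads, the guide arms together therefore overlapped between the groups of every comparison, and the widest 95% Wilson interval of a library was 0.105 percentage points on either side, which covers counting error only. The untreated EV libraries were the furthest apart of any group. On the scale of the deposited normalized counts the sum of the guide arms did not overlap for etoposide in R273H, with 36517 and 36646 untreated and 24376 and 16505 treated (log2 ratio of the means -0.84).

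The order of the guide arms was the same at its top and changed below it. In reads per 1000000 miRNA reads (RPM), a level that was not divided by length because the mature arms are of nearly equal length, miR-30c-5p led every group, with 39130 ± 17140 in untreated EV and 48367 ± 6465 in untreated R273H cells (mean ± SD, n = 2). miR-30b-5p and miR-30a-5p followed in untreated EV, at 10079 ± 4133 and 9548 ± 602, and their libraries overlapped. In untreated R273H they did not overlap, with miR-30a-5p at 12478 ± 1766 and miR-30b-5p at 5539 ± 2167. The last places were held by miR-30d-5p and miR-30e-5p. In untreated EV these were 1697 ± 203 and 1486 ± 152 and overlapped, whereas in untreated R273H miR-30e-5p, at 1752 ± 443, stood above miR-30d-5p, at 408 ± 129, in both libraries. After etoposide miR-30a-5p stood above miR-30b-5p in EV without overlap (10542.5 ± 1956 and 7147 ± 1917), unlike in untreated EV. miR-30d-5p stood above miR-30e-5p in treated EV (2324 ± 418 and 1837 ± 64.3) and below it in treated R273H (1008 ± 322 and 2722 ± 168). Those 2 guides did not overlap in either treated group.

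The make-up of the guide reads is a measure that no scaling between libraries touches. miR-30b-5p made up 15.1% and 16.99% of the guide reads in untreated EV and 6.59% and 9.27% in untreated R273H cells. miR-30d-5p made up 2.03% and 3.89% in untreated EV and 0.521% and 0.654% in untreated R273H cells. Both shares were lower in each R273H library than in each EV library. miR-30c-5p held the largest share in every library, from 57.0% to 72.0%. After etoposide miR-30d-5p made up 3.42% and 4.42% in EV and 1.34% and 1.94% in R273H, and miR-30b-5p 9.76% and 14.4% in EV and 5.03% and 6.57% in R273H.

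**Figure D1:**
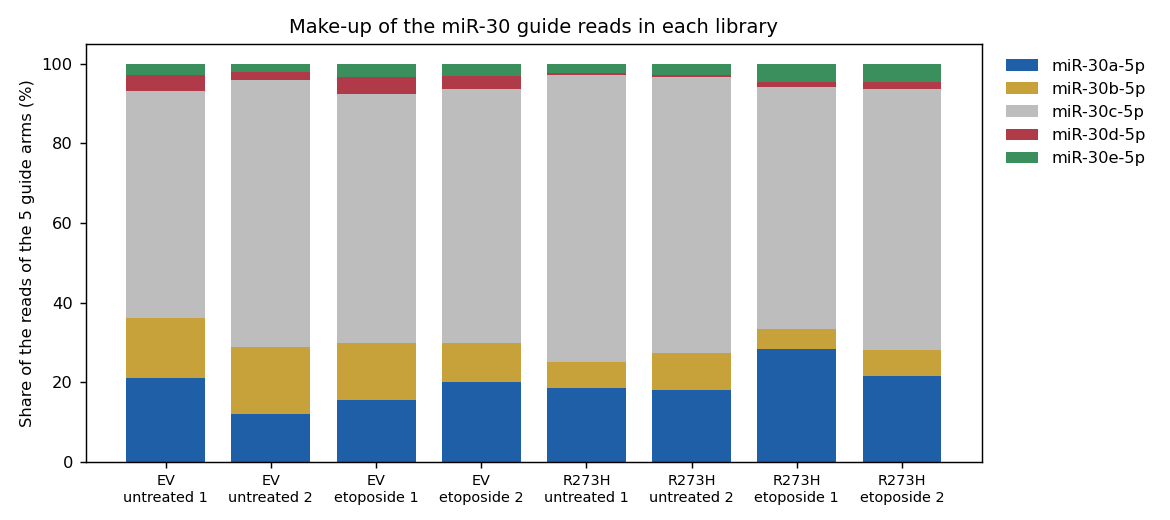
Share of the reads of the 5 guide arms (y axis, percent) held by each arm in each of the 8 libraries (x axis); each bar sums to 100%. miR-30c-5p fills 57.0% to 72.0% of each bar, and the miR-30d-5p segment is thinnest in the untreated R273H libraries, at 0.521% and 0.654%.

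The first comparison set untreated R273H against untreated EV cells, and asks which miRNAs differ in the presence of the mutant p53. miR-30d-5p was 3.98-fold lower in R273H and was the guide arm that passed the test, and the passenger arm miR-30e-3p was higher. These 2 were called among the 8 members whose mean normalized count reached the filter of 3, at an adjusted p-value under 0.05, beside 20.4% of all 304 miRNAs tested. The called miRNAs of the whole table divided into 10.9% higher and 9.54% lower, and this division turned with the scaling, from 33 higher and 29 lower as deposited to 15 higher and 22 lower at equal sums without miR-21-5p and 21 higher and 36 lower with edgeR. miR-30b-3p and miR-30d-3p did not pass the filter in any comparison. The libraries of both lines did not overlap for 6 of the 8 members, beside 61.5% of all miRNAs, so neither count sets the members apart.

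miR-30d-5p had 684 and 618 normalized counts in EV and 147 and 180 in R273H, and both R273H libraries lay far below both EV libraries. Its log2 fold change was -1.99 (standard error, SE, of 0.31, adjusted p = 0.000315, limma with Benjamini-Hochberg adjustment), from 651 ± 46.4 to 164 ± 23.8 (mean ± SD, n = 2). In bulk libraries, fewer cells with an RNA and less of it per cell cannot be told apart. The change stayed between -1.84 and -2.14 when any 1 library was left out. Without R273H replicate 1 the adjusted p was 0.142 and without R273H replicate 2 it was 0.101 (limma), in fits that assume that the lone library varies like the others.

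miR-30b-5p, whose hairpin neighbours that of miR-30d, had 2661 and 5177 normalized counts in EV and 1857 and 2556 in R273H. Every R273H library was below every EV library, but the upper R273H value and the lower EV value were close. The log2 fold change of -0.77 (SE 0.31) did not pass (adjusted p = 0.0864, limma). It passed with edgeR (log2 fold change -0.999, adjusted p = 0.0426) and without EV replicate 1 (-1.25, adjusted p = 0.00269, limma), and was -0.29 without EV replicate 2.

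miR-30c-5p, the most abundant arm, had 10041 and 20405 normalized counts in EV and 20304 and 19136 in R273H. The EV libraries lay 2.03-fold apart, so that the R273H values fell within their range, and the log2 fold change was 0.46 (SE 0.29, adjusted p = 0.272, limma). It came to -0.05 without EV replicate 1 and to 0.97 without EV replicate 2 (adjusted p = 0.951 and 0.0411, limma). miR-30b-5p was likewise 1.95-fold higher in EV replicate 2 than in replicate 1, against 0.979-fold for miR-30a-5p, 0.904-fold for miR-30d-5p and 1.24-fold for miR-30e-5p. The spread between the EV libraries was thus large for miR-30b-5p and miR-30c-5p and small for miR-30a-5p and miR-30d-5p.

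miR-30a-5p had 3708 and 3632 normalized counts in EV and 5206 and 4962 in R273H. The groups did not overlap, but the log2 fold change of 0.47 (SE 0.25) did not pass (adjusted p = 0.199, limma). miR-30e-5p had 512 and 634 in EV and 667 and 747 in R273H, with a log2 fold change of 0.31 (SE 0.29, adjusted p = 0.487, limma). The median log2 fold change of the 8 tested members was 0.38, beside 0.10 over all miRNAs tested.

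**Figure D2:**
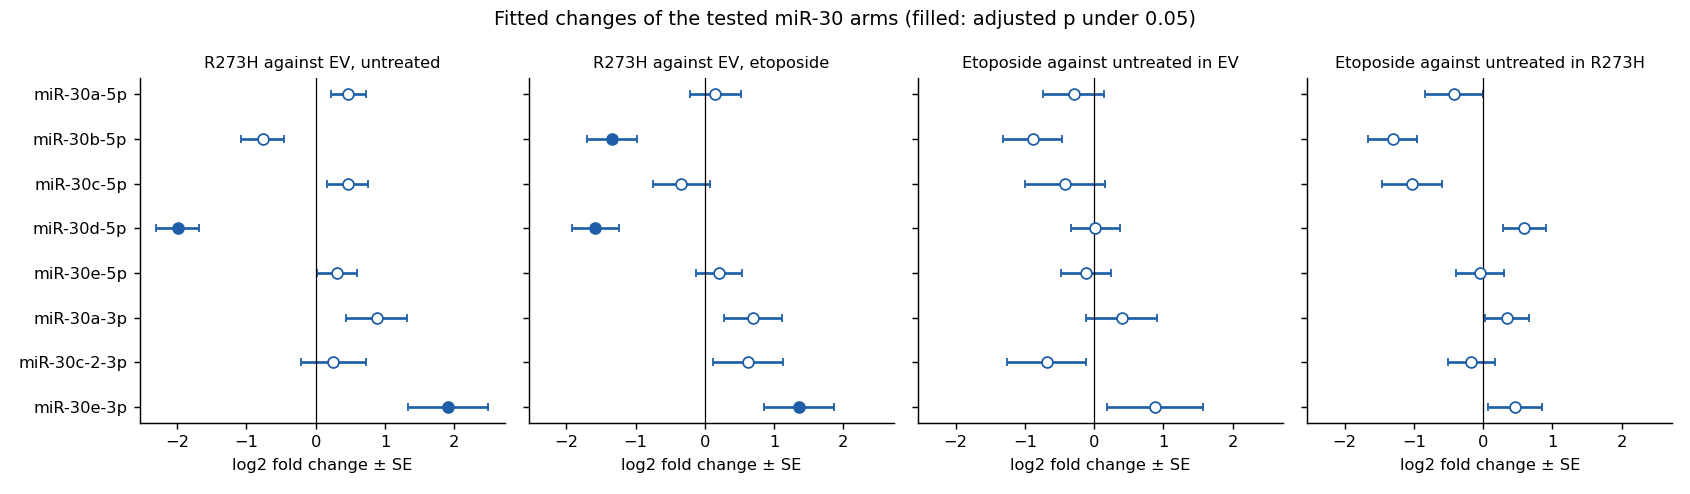
Fitted log2 fold changes (x axis, with SE bars) of the 8 tested arms (y axis) in 4 comparisons; filled points have an adjusted p-value under 0.05. miR-30d-5p is filled in both comparisons of the lines, at -1.99 and -1.58, and no point is filled in either comparison of etoposide against untreated cells.

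The same lines were then compared after etoposide, on the reads of all 8 libraries with edgeR, since no deposited table holds those libraries together. miR-30d-5p and miR-30b-5p were lower in R273H and miR-30e-3p was higher. These were 3 of 8 members, beside 22.5% of all 334 miRNAs tested, and the libraries did not overlap for 5 of 8 members, beside 54.5% of all miRNAs. Of all miRNAs tested, 27 were called higher (8.08%) and 48 lower (14.4%), against 47 higher and 23 lower with upper quartile scaling. That scaling moved the median of all miRNAs by 0.33, and scaling to RPM moved it by 0.36, so the negative changes below are smaller there.

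miR-30d-5p had 1897 and 2396 normalized counts per 1000000 reads (CPM) in treated EV and 699 and 733 in treated R273H cells. All treated R273H libraries lay below all treated EV libraries, and the log2 fold change was -1.58 (SE 0.34, adjusted p = 0.000156, edgeR). It passed with each of the 8 libraries left out in turn, and came to -1.23 (adjusted p = 0.0745) with limma on RPM.

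miR-30b-5p had 6158 and 6838 CPM in treated EV and 2632 and 2484 in treated R273H cells, again without overlap. Its log2 fold change was -1.34 (SE 0.36, adjusted p = 0.00344, edgeR). The adjusted p rose to 0.0700 without R273H etoposide replicate 1 and to 0.0709 without replicate 2, and to 0.0522 with upper quartile scaling (log2 fold change -1.03). For the other guide arms the log2 fold changes were 0.15 for miR-30a-5p, -0.34 for miR-30c-5p and 0.21 for miR-30e-5p (adjusted p = 0.848, 0.624 and 0.712, edgeR). In CPM their treated libraries overlapped between the lines. In RPM those of miR-30a-5p did not, at 9159 and 11926 in EV and 16584 and 13736 in R273H, nor did those of miR-30e-5p, at 1883 and 1792 in EV and 2603 and 2841 in R273H. The value of miR-30c-5p turned to 0.04 with limma on RPM.

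**Figure D3:**
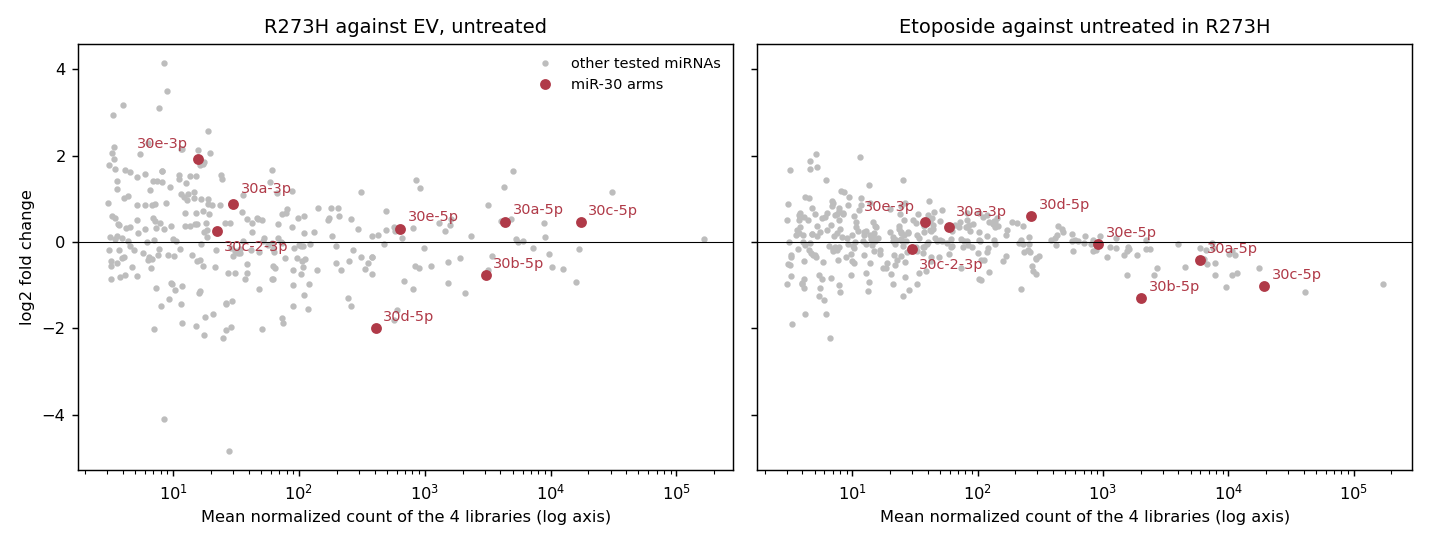
log2 fold change (y axis) against the mean normalized count of the 4 libraries (x axis, log scale) for all tested miRNAs (grey) and the tested miR-30 arms (red), between the untreated lines (left) and for etoposide in R273H (right). On the left miR-30d-5p lies at -1.99, and on the right miR-30b-5p and miR-30c-5p lie at -1.31 and -1.03.

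The remaining comparisons ask how each line responded to etoposide, and share their untreated libraries with the first one. In EV cells, 0 of 8 members passed at an adjusted p-value under 0.05 in limma, beside 0.676% of all 296 miRNAs tested. 1 member, miR-30b-5p, had an unadjusted p-value under 0.05, beside 8.11% of all miRNAs. DESeq2 and edgeR called 0 members there as well. The libraries did not overlap for 3 of 8 members, beside 34.1% of all miRNAs.

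In EV, miR-30b-5p went from 2479 and 4917 to 1727 and 2064 normalized counts, both treated values below both untreated ones. The log2 fold change was -0.89 (SE 0.42, adjusted p = 0.540, limma). In RPM the groups overlapped, at 7157 and 13001.5 untreated and 8502 and 5792 treated. miR-30c-5p had 9354 and 19379.9 normalized counts untreated and 7524 and 13479 treated, with overlap and a log2 fold change of -0.42 (SE 0.58). miR-30d-5p, with 637 and 587 untreated and 532 and 723 treated, had a log2 fold change of 0.02 (SE 0.36). In normalized counts the treated EV libraries stood apart most for miR-30a-5p, at 1860 and 4251, against 3454 and 3450 untreated. This spread depends on the scale. In RPM the treated EV libraries were closer for miR-30a-5p, at 9159 and 11926, and for miR-30c-5p, at 37041 and 37814.5. Those of miR-30b-5p were further apart in RPM than in normalized counts.

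In R273H cells, 0 of 8 members passed the adjusted test, as did 0 of all 341 miRNAs (0%), while limma gave 31 miRNAs below 0.05 before adjustment, and edgeR called 0 and DESeq2 1. At an unadjusted p-value under 0.05, 2 of 8 members passed, beside 9.09% of all miRNAs. Both were guide arms with lower values after etoposide and changes of more than 2-fold, beside 3.23% of all miRNAs that met those criteria in that direction. The libraries did not overlap for 4 of 8 members, beside 39.3% of all miRNAs.

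miR-30b-5p had 2407 and 3396 normalized counts in untreated and 1227 and 1084 in treated R273H cells. On this scale both treated values were under the lower untreated one, with a log2 fold change of -1.31 (SE 0.35, adjusted p = 0.389, limma). In RPM the groups overlapped, at 4006 and 7071 untreated and 2937 and 4185 treated. The adjusted p was 0.0306 with the filter raised to a mean of 10, 0.0185 with DESeq2 and 0.00638 without R273H etoposide replicate 1, and up to 0.456 in the other settings.

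miR-30c-5p had 26309.6 and 25425 normalized counts in untreated and 14809 and 10807.5 in treated R273H cells. The groups did not overlap, and the log2 fold change was -1.03 (SE 0.43, adjusted p = 0.495, limma). With any 1 library left out it lay between -1.26 and -0.80. In the alternatives that kept all libraries the adjusted p was 0.192 to 0.748 (limma, edgeR and DESeq2). miR-30d-5p was the guide arm with higher values after etoposide, at 190 and 240 untreated and 325.7 and 319.99 treated, without overlap, and a log2 fold change of 0.59 (SE 0.31, adjusted p = 0.510, limma). miR-30a-5p and miR-30e-5p overlapped, with log2 fold changes of -0.43 and -0.05. These values move with the scaling. In R273H the log2 fold changes of the alternatives that kept all libraries ran from -1.43 to -0.77 for miR-30b-5p. They ran from -1.15 to -0.49 for miR-30c-5p and from 0.48 to 1.14 for miR-30d-5p. With the sums of all miRNAs but miR-21-5p made equal, the median of all miRNAs moved by 0.53 in R273H and by 0.37 in EV, and miR-30a-5p and miR-30e-5p came to 0.12 and 0.49 in R273H and to 0.08 and 0.26 in EV.

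The responses of both lines were compared directly as an interaction in edgeR. No member differed at an adjusted p-value under 0.05 (0 of 8), beside 0% of all 334 miRNAs. Of all miRNAs 12 had an unadjusted p-value under 0.05 (3.59%), none of them a member, and DESeq2 called 0 with 5 at an unadjusted p-value under 0.05. The member with the smallest p-value was miR-30d-5p, whose response was higher in R273H by 0.58 on the log2 scale (SE 0.47, unadjusted p = 0.218). For miR-30b-5p the difference was -0.35 (SE 0.51) and for miR-30c-5p -0.54 (SE 0.58), so a difference of the responses was not detectable for these arms at this spread.

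The ratio of miR-30b-5p to miR-30d-5p, whose hairpins lie in 1 long non-coding RNA gene, was taken within each library. In untreated EV it was 3.89 (95% exact interval 3.63 to 4.18) and 8.37 (7.53 to 9.33), and in untreated R273H it was 12.7 (10.7 to 15.1) and 14.2 (12.3 to 16.4). After etoposide it was 3.25 and 2.85 in EV and 3.77 and 3.39 in R273H. The ratio was thus lower in each treated library than in each untreated one, although the intervals of untreated EV replicate 1 and treated R273H replicate 1 (3.37 to 4.22) overlapped, and the neighbouring arms did not keep a fixed proportion. The ratio is given as a description and was not tested.

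For miR-30d-5p to miR-30e-5p the ratio was 1.34 and 0.975 in untreated EV and 1.39 and 1.13 in treated EV libraries. In R273H it was 0.220 and 0.242 untreated and 0.299 and 0.435 treated, so that the lines did not overlap. For miR-30a-5p to miR-30e-5p it lay between 4.84 and 7.81 over all 8 libraries, and the lines overlapped. miR-30a-5p, miR-30d-5p and miR-30e-5p are near-identical arms, and counting could have divided reads between them. Their sum was 4904 and 4885 normalized counts in untreated EV and 6019.9 and 5889 in untreated R273H, a log2 ratio of 0.28. Most of this sum is miR-30a-5p, so it does not show whether reads were divided between the arms.

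The passenger arms were rare. Together they made up 0.0125% and 0.0132% of the miRNA reads in untreated EV, 0.0204% and 0.0258% in untreated R273H, 0.0144% and 0.0254% in treated EV and 0.0324% and 0.0547% in treated R273H libraries. The number of guide reads per passenger read was 380 and 579 in untreated EV, 299 and 296 in untreated R273H, 234 and 414 in treated EV, and 180 and 116 in treated R273H cells. It was lowest in the treated R273H libraries and highest in an untreated EV library.

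miR-30e-3p, the passenger of miR-30e, had 9 and 3.19 normalized counts in untreated EV and 35.9 and 15.1 in untreated R273H cells. These rest on 13 and 2 reads in EV and on 35 and 17 in R273H, without overlap. The log2 fold change was 1.91 (SE 0.58, adjusted p = 0.0262, limma). In pooled reads, R273H had 3.42-fold more (95% exact interval 1.90 to 6.54, counting error only). The call was lost with edgeR (adjusted p = 0.0853), DESeq2 (0.150), limma without the trend (0.0686) and equal sums without miR-21-5p (0.100). It was also lost without EV replicate 2 (0.285), R273H replicate 1 (0.368) or R273H replicate 2 (0.166), with changes of 1.29 to 2.51.

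Between the treated lines miR-30e-3p had 47.6 and 26.1 CPM in EV and 92.0 and 97.0 in R273H. The libraries did not overlap, and the log2 fold change was 1.36 (SE 0.51, adjusted p = 0.0387, edgeR). The adjusted p was 0.0575 without untreated EV replicate 2, 0.264 without EV etoposide replicate 2, 0.153 and 0.187 without R273H etoposide replicates 1 and 2, 0.133 with DESeq2 and 0.153 with limma on RPM. The passenger share of both miR-30e arms was 0.5% and 1.73% in untreated EV, 1.98% and 5.11% in untreated R273H, 1.22% and 3.37% in treated EV and 3.79% and 5.44% in treated R273H libraries, and the untreated lines did not overlap.

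miR-30a-3p, which has the seed of miR-30e-3p, had 19.4 and 22.3 normalized counts in untreated EV and 33.9 and 45.3 in untreated R273H cells. The groups did not overlap, but the log2 fold change of 0.88 (SE 0.44) did not pass (adjusted p = 0.165, limma). With etoposide it went from 18.1 and 21.2 to 26.7 and 25.6 in EV and from 43.9 and 60.2 to 61.8 and 69.1 in R273H. Neither response passed (adjusted p = 0.932 and 0.749, limma). miR-30c-2-3p had 16.6 and 23.9 in untreated EV and 19.5 and 29.3 in untreated R273H, with overlap and a log2 fold change of 0.25 (SE 0.47).

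**Figure D4:**
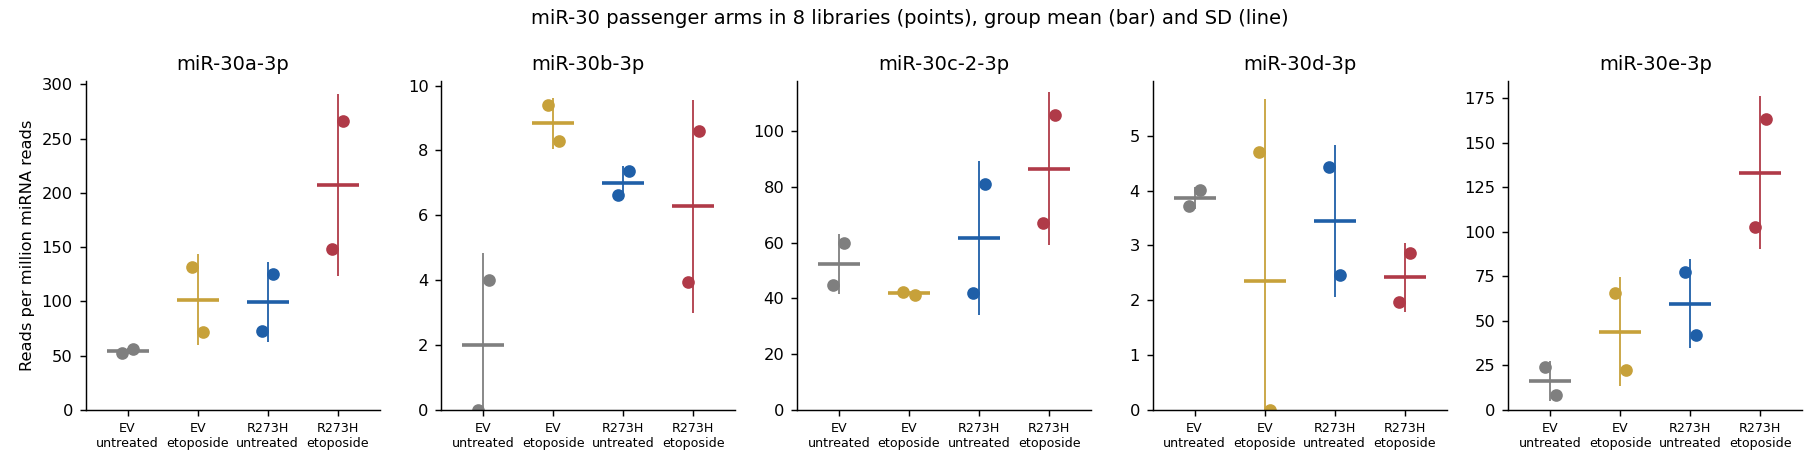
Reads per 1000000 miRNA reads (y axis, linear, from 0) of each passenger arm in the 4 groups (x axis); each point is a library, the bar is the mean and the line the SD of 2 libraries. miR-30e-3p lies at 8.01 and 24.2 in untreated EV and at 41.8 and 77.5 in untreated R273H libraries, and miR-30b-3p and miR-30d-3p rest on 0 to 3 reads.

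The remaining passenger arms were at the limit of detection in every library. miR-30b-3p had 0 and 1 reads in untreated EV, 2 and 3 in treated EV, 3 and 3 in untreated R273H and 2 and 3 in treated R273H libraries. miR-30d-3p had 2 and 1 reads in untreated EV, 1 and 0 in treated EV, 2 and 1 in untreated R273H and 1 and 1 in treated R273H libraries. A count of 0 allows up to 3 reads, which is 5.59 RPM in untreated EV replicate 1 and 8.28 in treated EV replicate 2. Between the untreated lines the ratio of pooled reads was 5.92 for miR-30b-3p (95% exact interval 0.718 to 272) and 0.987 for miR-30d-3p (0.132 to 7.37), so no difference was detectable at this depth. miR-30c-1-3p, an arm outside the list, had 0 to 3 reads in each library.

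Other groups of miRNAs were measured alongside the family. Of the 9 let-7 guide arms in the tables, a family that holds back growth and is likewise made from several hairpins, all were tested. Between the untreated lines 0 of 9 were called (limma), beside 20.4% of all miRNAs. let-7d-5p was closest, at a log2 fold change of -1.09 (adjusted p = 0.0668, limma). It was the 1 arm of the 9 under 0.05 before adjustment, beside 99 of all 304 miRNAs tested. Between the treated lines 3 of 9 were lower in R273H (edgeR), beside 14.4% of all miRNAs: let-7d-5p by a log2 fold change of -1.22, let-7f-5p by -0.96 and let-7g-5p by -0.90 (adjusted p = 0.0129, 0.0287 and 0.0356). Etoposide called 0 of 9 in either line (limma), beside 0.676% of all miRNAs in EV and 0% in R273H. Before adjustment 0 of the 9 in EV and 1 in R273H were under 0.05, beside 8.11% and 9.09% of all miRNAs.

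Of the 6 epithelial miRNAs in the tables, only miR-205-5p passed the filter in any comparison, and for etoposide in R273H none did. miR-205-5p had 5 reads in each treated EV library, 0 in each treated R273H library, 3 and 6 in untreated EV and 1 and 7 in untreated R273H. Between the treated lines it met the filter only through the other groups. It was called lower in treated R273H (adjusted p = 0.00327, edgeR), beside 14.4% of all miRNAs. The call rests on these few reads and is given as a description only.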

How the data were processed

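Small RNA fractions were sequenced on an Ion PGM instrument. The authors kept reads of 17 to 35 bases and matched them with SHRiMP against miRBase 20 (tRNA, rRNA and adapter entries are also in the tables). Reads left unaligned were mapped to the human genome with Novoalign, and the miRNA counts were adjusted for both alignments. The reads of each feature were divided by a DESeq size factor. The deposited signal is this normalized count, in 3 tables normalized separately. All values were whole multiples of 1 read (tolerance 0.02), so reads were recovered. Size factors assume that most features do not change. Multi-mapping between near-identical arms is not described in the sources used here.

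limma 3.58.1 (R 4.3.3, with trend) was fitted to log2(normalized count + 1) of all miRNAs with a mean of at least 3, which understates changes of low arms, with Benjamini-Hochberg adjustment. edgeR 4.0.16 (TMM, quasi-likelihood) was used on reads, with a mean of at least 3 reads. The treated lines and the interaction were fitted on all 8 libraries. For the other comparisons edgeR was an alternative, fitted on the libraries of that comparison only. DESeq2 1.42.0 was an alternative. All were tested on simulated reads. Intervals and limits cover counting error only. The members and lists were chosen with earlier results of these data known. 1 further list of miRNAs is not reported here. All 10 arms, the let-7 and epithelial lists and, for each guide, the 2 miRNAs with the nearest pattern are named. Python 3.11.15, pandas 2.3.3 and scipy 1.17.1 were used. Tables of the authors' own comparisons were not used; they hold fold changes and p-values.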

Additional observations from a re-analysis of the deposited data

How the results depend on the processing

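Under the alternatives that kept all libraries, 310 single-member values kept their direction and side of the threshold, 10 reversed, 12 no longer passed and 3 passed anew. With a library left out, 177 kept both, 32 reversed, 11 no longer passed and 4 passed anew. Between the untreated lines, 62 miRNAs and 2 members were called, against 37 and 1 at equal sums without miR-21-5p, 39 and 1 with limma without the trend and 34 and 1 with DESeq2. With 1 library left out these were 0 to 51 and 0 to 3. By an unadjusted p-value under 0.05 with at least 2-fold, leaving out a library gave 52 to 78 miRNAs and 1 to 3 members. The log2 change then ranged from -0.050 to 0.97 for miR-30c-5p and from -0.031 to 0.53 for miR-30c-2-3p.

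For etoposide in EV, 2 miRNAs were called, against 0 at equal sums without miR-21-5p, 1 each with limma without the trend, edgeR and DESeq2, and 0 to 1 with a library left out. By the unadjusted criteria 20 became 13 at a pseudocount of 5, 10 at a mean of at least 10, 12 with DESeq2 and 9 to 19 with a library left out. Reversed at equal sums were miR-30a-5p (0.082) and miR-30e-5p (0.26). With a library left out the log2 change ranged from -0.89 to 0.30 for miR-30a-5p, -0.94 to 0.11 for miR-30c-5p, -0.20 to 0.24 for miR-30d-5p and -0.49 to 0.25 for miR-30e-5p.

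For etoposide in R273H, 0 miRNAs were called by limma, against 2 at a mean of at least 10, 2 at equal sums without miR-21-5p, 1 with DESeq2 and 0 to 9 with a library left out, and 0 members became 1 at a mean of at least 10, 1 with DESeq2 and 0 to 2 with a library left out. The calls come from the fit without R273H etoposide replicate 1. By the unadjusted criteria 21 miRNAs became 11 at a pseudocount of 5, 10 at a mean of at least 10, 33 when every miRNA was tested, 38 at equal sums, 10 with DESeq2 and 9 to 32 with a library left out. Of 2 members 1 was left when every miRNA was tested, at a mean of at least 10 and at equal sums, and 1 to 2 with a library left out. Reversed at equal sums were miR-30a-5p (0.12), miR-30e-5p (0.49) and miR-30c-2-3p (0.35). With a library left out the log2 change ranged from -0.91 to 0.055 for miR-30a-5p, -0.33 to 0.23 for miR-30e-5p, -0.48 to 0.13 for miR-30c-2-3p and -0.13 to 1.05 for miR-30e-3p.

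Between the treated lines, 75 miRNAs and 3 members became 47 miRNAs with DESeq2 and 24 miRNAs and 0 members with limma on RPM, where miR-30c-5p reversed (0.039). With a library left out these were 23 to 75 and 1 to 3, and the log2 change ranged from -0.32 to 0.79 for miR-30a-5p, -0.67 to 0.069 for miR-30c-5p and -0.088 to 0.55 for miR-30e-5p. For the difference of the responses, 0 to 1 miRNAs were called with a library left out. By the unadjusted criteria 12 became 6 at a mean of at least 10, 32 when every miRNA was tested, 5 with DESeq2, 7 with limma on RPM and 10 to 28 with a library left out. Reversed were miR-30a-5p (0.15) and miR-30a-3p (0.21) with limma, miR-30e-5p with upper quartile scaling (-0.012) and miR-30a-3p without a filter (0.065). With a library left out, the difference ranged from -0.72 to 0.50 for miR-30a-5p, -0.89 to 0.039 for miR-30b-5p, -0.35 to 0.42 for miR-30e-5p, -0.31 to 0.20 for miR-30a-3p and -1.42 to 0.38 for miR-30e-3p. The cause of these moves was not tested.

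The replicate numbers are shared between groups. Deviations of same-numbered libraries from their group means had correlations of -0.0269 between the untreated lines, 0.0374 in EV and -0.0825 in R273H. With 2 libraries a group these values cannot show whether same-numbered libraries were prepared together, and the main fits did not pair them. With the replicate number as a block, 0 miRNAs and 0 members were called between the untreated lines (adjusted p = 0.0617 for miR-30d-5p, limma), which leaves 1 residual degree of freedom, and miR-30e-3p was at 0.0591 between the treated lines (edgeR). Depth limits miR-30b-3p and miR-30d-3p, at 0 to 3 reads a library, and the values of miR-30e-3p, at 2 to 57, and miR-30c-2-3p, at 9 to 37.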

Other observations

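For each guide arm, the miRNAs outside the family with the most similar pattern were taken from 154 miRNAs with at least 10 reads in every library, by Pearson's r of log2(RPM + 1) over the 8 libraries. The libraries fall into 4 groups, and all RPM values of a library share 1 divisor, so r is given as a description only. Counting noise differs between pairs, since the miRNAs named ranged from 21.7 RPM (miR-100-3p) to 11100 RPM (miR-19a-3p). miR-30d-5p was nearest to let-7d-5p (r = 0.972) and miR-9-3p (r = 0.970), and miR-30e-5p to miR-584-5p (r = 0.975) and miR-181b-5p (r = 0.974). miR-30a-5p was nearest to miR-128-3p (r = 0.907) and miR-19a-3p (r = 0.884), and miR-30b-5p to miR-100-3p (r = 0.822) and miR-21-3p (r = 0.821), the passenger arm of miR-21. miR-30c-5p had the weakest likeness to any miRNA, with r = 0.619 for miR-7-5p and r = 0.597 for miR-17-3p. None of the guide arms thus had the same nearest miRNAs as another.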
